A study of Homo sapiens with 22 samples.

Results

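The 32 genes described here encode the glucose and lactate transporters, the enzymes of glycolysis, the bifunctional enzymes that tune it, the enzymes at the pyruvate and lactate branch point, and 6 enzymes of the pentose phosphate pathway. They were chosen by name as a pathway, with earlier results of these data known, and all 32 were matched among the 58278 gene entries of the count tables. Total RNA (RNA-Seq) and fragments shielded by ribosomes (Ribo-Seq, whose footprints sample mRNAs under translation) were sequenced in LN308, an established human glial line from an astrocytoma that lacks p53, grown with 10% FBS. Every library came from this 1 line. Tunicamycin, an inhibitor of N-linked glycosylation, was given at 2.5 µg/ml, and thapsigargin, an inhibitor of the SERCA calcium pump, at 200 nM. Both provoke stress of the endoplasmic reticulum (ER). In each assay there were 3 untreated libraries (0 h), 3 of tunicamycin at 2 h, 3 of tunicamycin at 6 h, and 1 of thapsigargin at each of these times. The 0 h group is labelled untreated while the protocol names DMSO as the control, and no vehicle library of 2 h or 6 h was used here. Separate cultures are not stated for the replicates, so the p-values cover no more than the spread of these samples, which may be technical.

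Glycolysis takes glucose in through GLUT transporters, traps it with hexokinase, commits it at phosphofructokinase and ends in pyruvate, which lactate dehydrogenase turns into lactate or pyruvate dehydrogenase sends to the mitochondrion. The PFKFB enzymes make and break fructose 2,6-bisphosphate, the strongest activator of phosphofructokinase, and the PDK kinases switch pyruvate dehydrogenase off. The pentose phosphate pathway branches off at glucose 6-phosphate and yields NADPH and ribose phosphate. Gliomas are known for high glycolytic flux, and several of these genes are textbook targets of the hypoxia factor HIF.

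RNA-Seq libraries held 101371822 to 166586145 counts and Ribo-Seq libraries 4387173 to 29183769. The members took 0.803% to 1.44% of RNA-Seq counts and 0.506% to 1.17% of Ribo-Seq counts. Levels are given as CPM, read counts relative to the size of the library, after scaling by the trimmed mean of M-values (TMM), in the order of replicates 1, 2 and 3. They were not set per length, so levels of different genes are not compared. The ER stress markers HSPA5, HERPUD1, DDIT3 and ASNS all rose at 6 h of either drug in both assays (edgeR, adjusted p at most 0.0330). Of 11 glial markers, 8 had a median of at least 1 CPM in each assay, while the medians of SOX9, AQP4 and ALDH1L1 were near 0. GFAP was called higher at 6 h of tunicamycin in RNA-Seq (1.15 ± 0.25, adjusted p = 0.0493), with 0 of 11 lower and 1.5% of all genes called. None of 10 blood cell markers and 4 (RNA-Seq) or 5 (Ribo-Seq) of 10 epithelial markers reached that level. CLDN4 was called lower at 6 h of thapsigargin in RNA-Seq (-2.22 ± 0.48, adjusted p = 0.0475), where 1.79% of all genes were called. The summed epithelial markers were 63.0 to 79.2 CPM in untreated RNA-Seq libraries and 92.2 to 149 CPM at 6 h of tunicamycin, and their part in the results was not tested.

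Untreated replicate 1 stood apart from the other untreated libraries for these genes, and this bears on every comparison with untreated cells. In RNA-Seq, SLC2A1 (GLUT1, the main glucose importer) stood at 52.1 CPM there against 311 and 318 CPM in replicates 2 and 3. PKM (pyruvate kinase, the last enzyme of glycolysis) stood at 703 against 3198 and 2876 CPM. Both were also low in its Ribo-Seq library, with 78.2 against 354 and 302 CPM for SLC2A1 and 897 against 2243 and 2373 CPM for PKM. In RNA-Seq, 13 of 32 members were lower by more than 1 on the log2 scale than the mean of the other replicates, and 0 were higher by as much. In Ribo-Seq 6 were lower and 3 (HK1, PFKM and PDK3) higher by as much. The 6 lower in Ribo-Seq were all among the 13 in RNA-Seq. Over all genes, 15.7% were lower and 19.7% higher by this much in RNA-Seq, and 15.7% and 14.7% in Ribo-Seq. Replicates 2 and 3 differed by a median of 0.08 over the members in RNA-Seq and of 0.19 in Ribo-Seq. In this RNA-Seq library 53489 genes had a count, while the others held 38264 to 40331 such genes. It had a TMM factor of 1.46, against 0.904 to 1.06. That factor lowers every CPM of the library. The 13 members and the shares of all genes counted above in RNA-Seq therefore depend on this scaling, and they were not counted by library size alone. Among glial markers, SLC1A3 and S100B were highest in untreated replicate 1 in both assays. SLC1A3 stood there at 33.7 CPM in RNA-Seq and 35.7 CPM in Ribo-Seq, against medians over all libraries of 2.86 and 1.56 CPM. S100B stood at 311 and 481 CPM, against medians of 162 and 175 CPM. Summed glial markers ranged from 1430 to 4371 CPM over the untreated RNA-Seq libraries. The part of these differences in the results was not tested. In the paired fits without untreated replicate 1, all 4 ER stress markers were still called higher at 6 h of tunicamycin in both assays and at 6 h of thapsigargin in RNA-Seq. GFAP (1.25 ± 0.17, adjusted p = 0.000334, edgeR) was called higher at 6 h of tunicamycin and CLDN4 (-1.61 ± 0.35, adjusted p = 0.00584) lower at 6 h of thapsigargin there too. In RNA-Seq these comparisons called 23.9% and 26.8% of all genes. Both markers were low, with GFAP at 0.678 to 3.38 CPM and CLDN4 at 0.360 to 2.15 CPM over the RNA-Seq libraries.

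**Figure D1:**
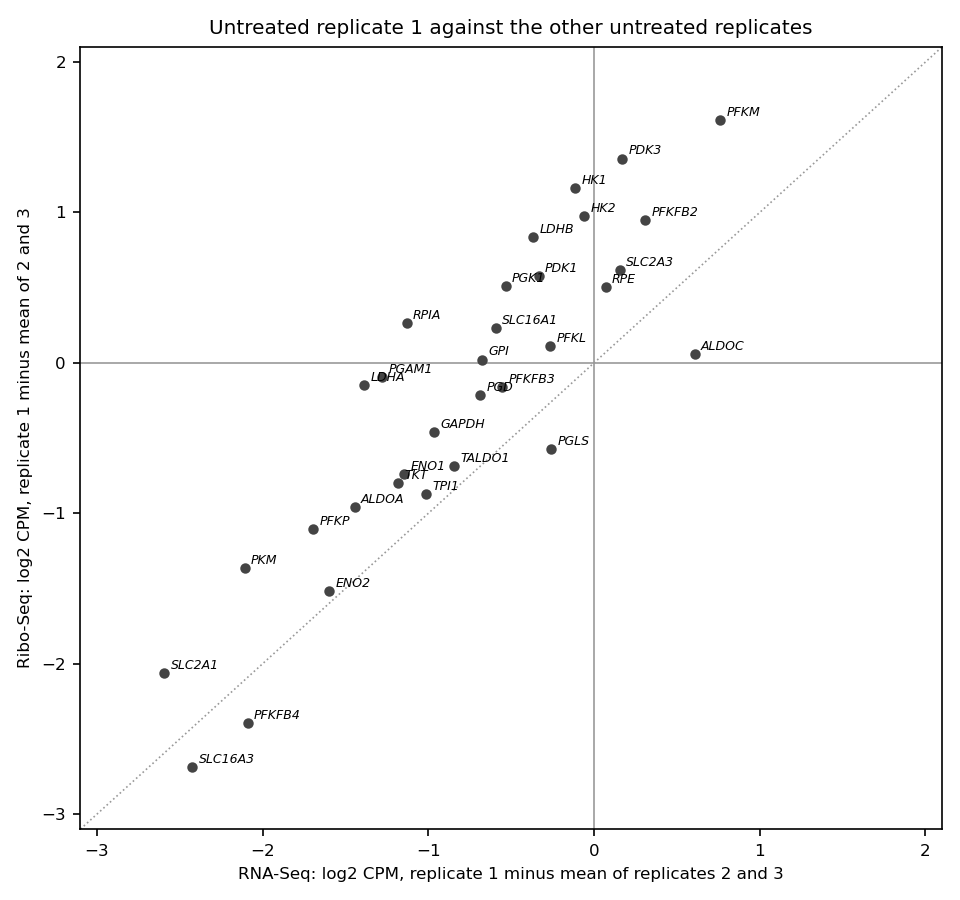
Each point is 1 of the 32 members, placed by its log2 CPM in untreated replicate 1 minus the mean of untreated replicates 2 and 3, in RNA-Seq (x axis) and Ribo-Seq (y axis), with equality as a dotted line. SLC2A1, SLC16A3, PFKFB4 and PKM lie more than 1 below 0 in both assays, and PFKM lies highest in both.

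The values below come from 3 fits. The first uses all 11 libraries of an assay with no pairing. The second adds the replicate number as a block, because same-numbered libraries deviated together in all pairs of groups but untreated and 2 h of tunicamycin in RNA-Seq. In RNA-Seq, replicates 2 and 3 also deviated together across those pairs, so the numbers set replicate 1 apart more than 2 from 3. The third adds the block and leaves out untreated replicate 1. Called means an adjusted p under 0.05, and percentages in parentheses give the share of all genes tested that were called in the same fit.

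After 2 h of tunicamycin, the fit of all RNA-Seq libraries called 0 of 32 members (0.00973% of all genes). At an unadjusted p under 0.05 there were 2 members, and DESeq2 called 0. The members nearest to a call were SLC2A3, PFKFB4 and PFKFB3, all higher than in untreated cells. SLC2A3 (GLUT3, a high-affinity glucose importer) stood 0.74 ± 0.22 higher on the log2 scale (SE, adjusted p = 0.548), PFKFB4 1.29 ± 0.54 (adjusted p = 0.548) and PFKFB3 0.45 ± 0.32 (adjusted p = 0.594). The numbers were not shown to pair these RNA-Seq groups. Without untreated replicate 1 and with the block, SLC2A3 (0.90 ± 0.13, adjusted p = 0.0100) and PFKFB3 (0.54 ± 0.11, adjusted p = 0.0335) rose, 2 of 32 members (2.54%). Footprints gave 0 of 32 members at 2 h (0%), with 0 at an unadjusted p under 0.05 and 0 by DESeq2. The 3 smallest p-values there were those of ENO2 (0.95 ± 0.44), TALDO1 (0.49 ± 0.27) and GAPDH (0.62 ± 0.35), each with an adjusted p of 1.0.

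After 6 h of tunicamycin, HK2 and PDK1 stood higher and PFKFB3 lower than in untreated cells, with no overlap between the RNA-Seq groups. Of 32 members, 4 lay wholly above the untreated libraries (10.5% of all genes) and 1 wholly below (10.6%). SLC2A3 and RPE were the others above. The fit of all libraries called 0 of 32 members (1.5%), with 4 at an unadjusted p under 0.05, while DESeq2 called 3. On the log2 scale PDK1 differed by 0.81 ± 0.24 (adjusted p = 0.142), PFKFB3 by -1.07 ± 0.32 (adjusted p = 0.155) and HK2 by 1.09 ± 0.34 (adjusted p = 0.163). With the replicate block PFKFB3 fell (-1.09 ± 0.19, adjusted p = 0.0215), 1 of 32 members (3.95%). Without untreated replicate 1 as well, 16 of 32 members were called (23.9%), 4 higher and 12 lower. HK2, PDK1, RPE and SLC2A3 rose. PFKFB3, LDHA, PGAM1, LDHB, PFKM, TPI1, TKT, ENO2, SLC16A3, PGD, GAPDH and GPI fell. Apart from HK2 (1.32 ± 0.11, adjusted p = 6.74e-06) and PFKFB3 (-0.99 ± 0.11, adjusted p = 9.58e-05), these changes lay between -0.55 for LDHA and 0.56 for PDK1. The median log2 fold change of the 32 members was 0.07 in the fit of all libraries, -0.20 with library size alone and -0.22 in the fit without untreated replicate 1. The median of all genes tested was -0.27, -0.58 and -0.02 in these 3 fits. The members' median thus lay above that of all genes in the first 2 and below it in the last.

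Between 2 h and 6 h of tunicamycin, HK2 rose and PFKFB3 fell. Neither group holds an untreated library, but the 3 fits estimate the spread and the scaling with untreated libraries included. The fit of all libraries called 0 of 32 members in RNA-Seq (0.742%), with 4 at an unadjusted p under 0.05, and DESeq2 called 3. There PFKFB3 differed by -1.52 ± 0.33 (adjusted p = 0.0742), HK2 by 1.55 ± 0.34 (adjusted p = 0.0795) and PFKFB4 by -1.73 ± 0.54 (adjusted p = 0.238). With the replicate block, PFKFB3 fell (-1.52 ± 0.19, adjusted p = 0.0105) and HK2 rose (1.53 ± 0.25, adjusted p = 0.0250), 2 of 32 members (2.73%). Without untreated replicate 1, which also took the genes tested from 41130 to 31144, 15 of 32 members were called (33.1%), 3 higher (HK2, PDK1 and RPE) and 12 lower. The SE of HK2 was then 0.09, with a log2 fold change of 1.51. In RNA-Seq 2 of 32 members at 6 h lay wholly above the 2 h libraries (10.3% of all genes) and 7 wholly below (9.21%). In Ribo-Seq 1 lay wholly above (9.10%) and 4 wholly below (8.53%). The paired differences need no fit. In RNA-Seq 16 of 32 members were lower at 6 h than at 2 h in all 3 replicate numbers (30% of all genes) and 6 were higher in all 3 (28.5%). In Ribo-Seq 9 were lower (24.7%) and 6 higher (22.1%) in all 3. HK2, PDK1 and PFKP were higher and PFKFB3, PFKFB4, SLC16A3, PFKM, TPI1, PDK3 and TKT lower in every replicate number of both assays. The share of all genes that did so in both assays was not counted.

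**Figure D2:**
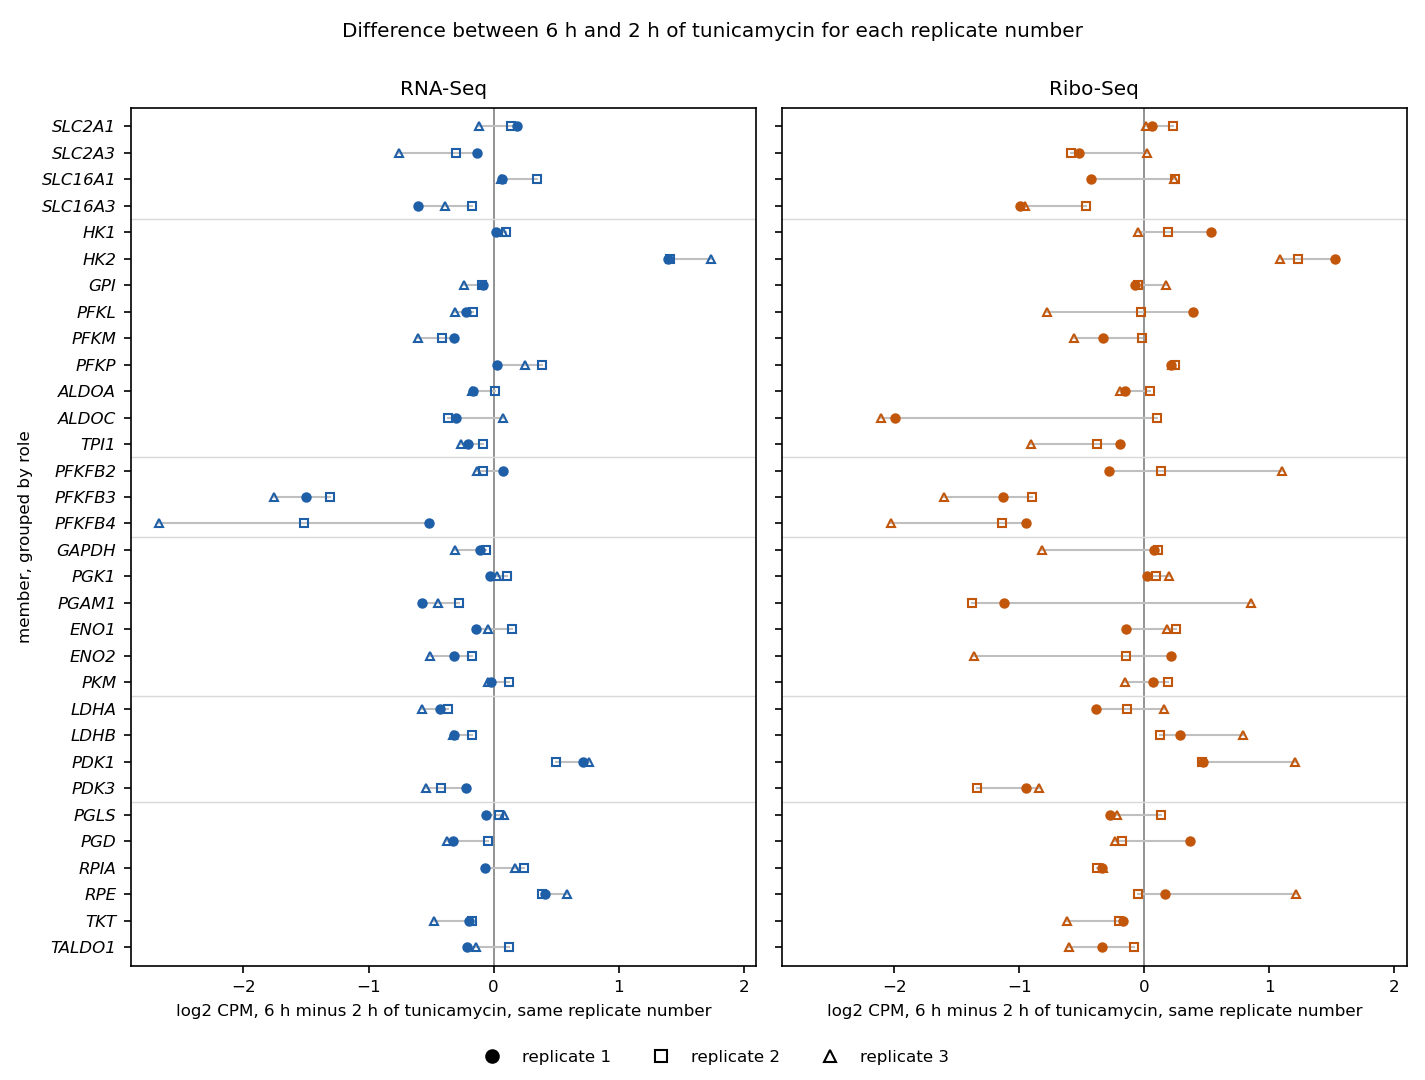
Log2 CPM at 6 h minus 2 h of tunicamycin for the 32 members in RNA-Seq (left) and Ribo-Seq (right), with 1 point for each replicate number and members grouped by role. HK2 lies right of 1 and PFKFB3 at -0.90 or further left in all 3 replicate numbers of both assays.

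In footprints, PFKFB3 was the member with the smallest p at 6 h against both untreated cells and 2 h. Of 32 members, 2 at 6 h lay wholly above the untreated footprint libraries (9.54% of all genes) and 5 wholly below (11.1%). The fit of all Ribo-Seq libraries called 0 of 32 members against untreated cells (0.84%) and 0 against 2 h (0.752%). At an unadjusted p under 0.05 there were 2 and 3 members, and DESeq2 called 1 in each. Against untreated cells, the values were -1.20 ± 0.30 for PFKFB3 (adjusted p = 0.107), -1.37 ± 0.51 for PDK3 (adjusted p = 0.302) and -0.87 ± 0.41 for PGAM1 (adjusted p = 0.429). Against 2 h they were -1.23 ± 0.30 for PFKFB3 (adjusted p = 0.103), 1.23 ± 0.42 for HK2 (adjusted p = 0.295) and -1.39 ± 0.61 for PFKFB4 (adjusted p = 0.486). With the block, PFKFB3 fell against untreated cells (-1.21 ± 0.22, adjusted p = 0.0298), 1 of 32 members (2.53%). It fell against 2 h as well (-1.21 ± 0.22, adjusted p = 0.0299), again 1 of 32 (2.39%). Without untreated replicate 1 of Ribo-Seq, PFKFB3 (-0.99 ± 0.19, adjusted p = 0.0184) and HK2 (1.41 ± 0.19, adjusted p = 0.00284) were called against untreated cells, 2 of 32 (4.08%). HK2, PFKFB3, PFKFB4 and SLC16A3 were called against 2 h, 4 of 32 (10.1%).

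Hexokinases open the pathway by phosphorylating glucose. HK2, the inducible isoform, stood in RNA-Seq at 134, 138 and 142.5 CPM in untreated cells, at 64.7, 114 and 122 CPM after 2 h of tunicamycin and at 170.3, 303 and 409 CPM after 6 h. Its footprints stood at 109.98, 50.7 and 61.9 CPM untreated, at 24.9, 58.3 and 66.2 CPM at 2 h and at 71.6, 137 and 140.2 CPM at 6 h. All 3 libraries at 6 h lay above all others of the tunicamycin series in RNA. In footprints, the 6 h values overlapped the untreated group only through untreated replicate 1. HK1, the housekeeping isoform, ranged from 117 to 159.6 CPM over all 11 RNA-Seq libraries. The ratio of HK2 to HK1 counts in RNA-Seq was 1.16, 2.18 and 2.99 at 6 h, against 0.448, 0.873 and 0.942 at 2 h.

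PFKFB3 and PFKFB4 carry the switch that sets fructose 2,6-bisphosphate, PFKFB3 with far more kinase than phosphatase activity. PFKFB3 RNA stood at 126, 168 and 202 CPM untreated, at 148, 246 and 283 CPM at 2 h and at 52.4, 99.4 and 83.6 CPM at 6 h. PFKFB3 footprints stood at 184, 192 and 219 CPM untreated, at 138, 197 and 275 CPM at 2 h and at 62.8, 105.7 and 91.0 CPM at 6 h. The 6 h libraries lay below all untreated and 2 h libraries in both assays. PFKFB4 RNA stood at 8.69, 38.0 and 36.1 CPM untreated, at 31.0, 64.9 and 107 CPM at 2 h and at 21.7, 22.7 and 16.7 CPM at 6 h. The 6 h values of PFKFB4 lay below all 2 h values in RNA but overlapped the untreated group through its replicate 1. Its footprints stood at 8.14, 54.0 and 33.9 CPM untreated, 27.9, 64.5 and 65.0 CPM at 2 h and 14.5, 29.3 and 16.0 CPM at 6 h, where the 2 h and 6 h groups overlapped. PFKFB2, the isoform best known from heart, ranged from 22.2 to 42.0 CPM in RNA-Seq. PFKFB4 shares its locus with UCN2 and PFKFB2 with YOD1, so without a stated strand setting their counts are uncertain. The ratio of HK2 to PFKFB3 counts, which needs no scaling between libraries and was chosen after the values were seen, was 3.25, 3.04 and 4.89 at 6 h in RNA-Seq, against 0.437, 0.462 and 0.433 at 2 h and 1.07, 0.821 and 0.705 untreated. In Ribo-Seq it was 1.14, 1.29 and 1.54 at 6 h, against 0.181, 0.297 and 0.240 at 2 h and 0.598, 0.264 and 0.282 untreated. The 6 h ratios lay above all others of the tunicamycin series in both assays.

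**Figure D3:**
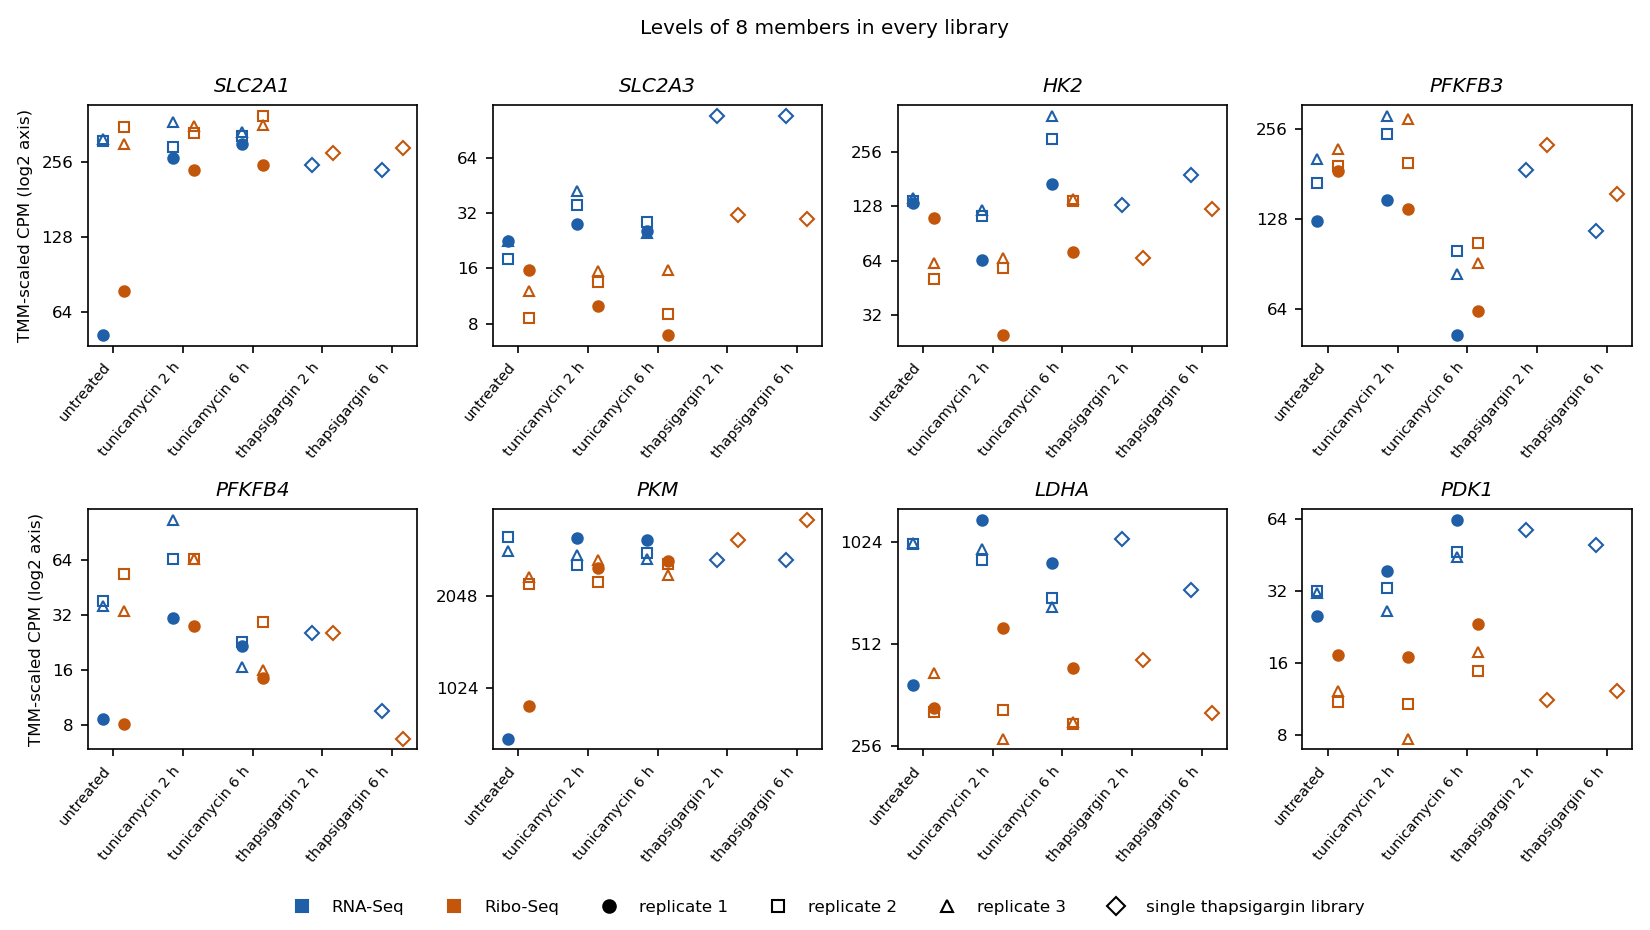
TMM-scaled CPM (log2 axis) of 8 members in each of the 11 RNA-Seq (blue) and 11 Ribo-Seq (orange) libraries, with replicate 1 filled and thapsigargin as diamonds. HK2 is highest and PFKFB3 lowest at 6 h of tunicamycin among RNA-Seq libraries of the tunicamycin series, SLC2A3 RNA is highest in the 2 thapsigargin libraries, and SLC2A1, PFKFB4 and PKM RNA are lowest in untreated replicate 1.

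Like HK2 and the PFKFB genes, the remaining enzymes of the upper pathway were not called in the fit of all libraries. In the paired fit without untreated replicate 1, GPI, PFKM and TPI1 were called lower at 6 h of tunicamycin than in untreated cells. The liver-type phosphofructokinase PFKL ranged from 45.3 to 95.9 CPM in RNA-Seq, lowest in both thapsigargin libraries. The muscle-type PFKM ranged from 40.9 to 100.03 CPM and the platelet-type PFKP from 81.9 to 275 CPM. TPI1, which interconverts the triose phosphates, stood at 745 and 648 CPM in replicate 1 of tunicamycin at 2 h and 6 h, against 365 to 440.0 CPM in replicates 2 and 3. ALDOC, the brain aldolase, stayed at or below 1.92 CPM in RNA-Seq and had as few as 3 counts in a Ribo-Seq library. PFKM overlaps SENP1, and TPI1 overlaps SPSB2, so both are uncertain. The 4 TPI1 pseudogenes held up to 5.89% of the footprint counts of TPI1 and its pseudogenes together, the measure used for every pseudogene share here.

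Of the transporters, SLC2A1 stood at 267, 296 and 370 CPM after 2 h and 303, 327 and 340.2 CPM after 6 h in RNA-Seq, close to untreated replicates 2 and 3. SLC2A3 stood at 22.5, 18.1 and 22.4 CPM untreated, at 28.0, 35.3 and 42.1 CPM at 2 h and at 25.6, 28.7 and 25.0 CPM at 6 h. Each 2 h library lay above each untreated one. The 3 entries named as SLC2A3 pseudogenes held 1.83% to 12.6% of RNA-Seq counts and up to 16.9% of footprint counts, so its values are uncertain. The lactate exporter SLC16A3 (MCT4) stood at 9.68, 52.4 and 51.5 CPM untreated, at 27.6, 47.5 and 54.7 CPM at 2 h and at 18.1, 42.2 and 41.7 CPM at 6 h. Its replicate 1 was lowest in all 3 groups. SLC16A3 overlaps CSNK1D, which had more counts, and its values are uncertain for that reason. SLC16A1 (MCT1), which carries lactate both ways, ranged from 134 to 217 CPM outside thapsigargin.

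Lower glycolysis turns triose phosphate into pyruvate and makes the pathway's ATP. GAPDH, its first step, stood at 3249, 2006 and 2276.5 CPM at 2 h and 3009.5, 1924 and 1837 CPM at 6 h of tunicamycin, and ENO1 (enolase) at 2079, 1235 and 1341 CPM and then 1887, 1364 and 1299.9 CPM. Replicate 1 was the highest of each of these groups, and the times overlapped. PGAM1 (phosphoglycerate mutase) stood at 93.5, 73.8 and 78.6 CPM at 2 h and at 62.8, 61.1 and 57.8 CPM at 6 h, with no overlap. Its 13 pseudogenes held 3.69% to 8.55% of RNA-Seq counts and up to 23.9% of footprint counts. The 65 GAPDH pseudogenes held up to 2.30% and 15.0%. Summed over 6 genes, lower glycolysis stood at 9147, 6240.1 and 6839.9 CPM at 2 h and 8619, 6530.5 and 6254.5 CPM at 6 h. PGK1, the first enzyme of the pathway to make ATP, ranged from 238 to 536 CPM and ENO2, the neuronal enolase, from 6.38 to 23.01 CPM.

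At the pyruvate branch point, LDHA and PDK1 RNA went different ways in the fit without untreated replicate 1. LDHA, which makes lactate, stood at 387, 1008 and 1018 CPM untreated, 1190.0, 902 and 975 CPM at 2 h and 886, 700.0 and 657 CPM at 6 h. All 6 h libraries lay below all 2 h libraries. LDHA footprints stood at 570, 327 and 270 CPM at 2 h and 436, 297 and 301 CPM at 6 h, lower in replicate numbers 1 and 2 and higher in 3. LDHB, the isoform that favours pyruvate, stood at 568, 292 and 289 CPM at 2 h and 455, 259 and 231 CPM at 6 h in RNA-Seq, so its RNA was lower at 6 h within each replicate number while the groups overlapped. LDHB footprints were higher at 6 h within each replicate number, at 266, 107 and 84.8 CPM at 2 h and 324, 116 and 147 CPM at 6 h, again with overlap. PDK1, a kinase that inhibits pyruvate dehydrogenase, stood at 25.2, 32.0 and 31.5 CPM untreated, at 39.0, 33.1 and 26.4 CPM at 2 h and at 64.0, 46.7 and 44.7 CPM at 6 h. The 6 h values exceeded all others of the tunicamycin series. PDK1 footprints were sparse and stood at 16.9, 10.8 and 7.71 CPM at 2 h and 23.4, 14.9 and 17.7 CPM at 6 h. PDK3, a related kinase, stayed between 4.38 and 9.33 CPM in RNA-Seq.

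The 6 pentose phosphate enzymes were not called in the fit of all libraries. Their summed RNA level was 823, 742 and 775 CPM at 2 h and 757, 715 and 643 CPM at 6 h of tunicamycin, against 430.1, 850.3 and 757 CPM untreated. RPE, which makes xylulose 5-phosphate, stood at 96.4, 60.8 and 60.5 CPM at 2 h and 128, 79.4 and 90.9 CPM at 6 h, higher within each replicate number. RPE overlaps KANSL1L and its 6 pseudogenes held up to 8.57% of RNA-Seq counts, so it is uncertain. TKT, the transketolase that moves carbon back to glycolysis, stood at 471, 477 and 484 CPM at 2 h and 411, 423 and 348 CPM at 6 h, with no overlap. PGD, which makes NADPH, stood at 97.1, 80.9 and 93.7 CPM at 2 h and 77.5, 78.4 and 72.2 CPM at 6 h, also with no overlap. TALDO1 (transaldolase) ranged from 55.3 to 121 CPM, RPIA from 13.1 to 30.2 CPM and PGLS from 14.6 to 22.6 CPM.

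The members' largest log2 fold change in the fit of all libraries was that of SLC2A3 RNA under thapsigargin. Its RNA stood at 108.4 CPM at 2 h and 108.2 CPM at 6 h in the single thapsigargin libraries, above every other RNA-Seq library, where the highest was 42.1 CPM. SLC2A3 rose at 2 h (log2 fold change 2.37 ± 0.28, adjusted p = 0.01405), 1 of 32 members (0.0997%), and at 6 h (2.37 ± 0.28, adjusted p = 0.00324), again 1 of 32 (1.79%). The 2 h call was lost in 3 alternatives. Leaving out untreated replicate 2 gave 2.27 (adjusted p = 0.0985) and leaving out replicate 3 gave 2.42 (adjusted p = 0.0659). Scaling by library size alone gave 2.04 (adjusted p = 0.109). These tests assume that the lone library varied like the other groups. The next smallest p-values were those of PDK1 (0.96 ± 0.32, adjusted p = 0.370) and PFKL (-0.66 ± 0.30, adjusted p = 0.471) at 2 h. At 6 h they were those of PFKL (-0.93 ± 0.30, adjusted p = 0.154) and PDK1 (0.76 ± 0.32, adjusted p = 0.259). SLC2A3 footprints stood at 31.3 and 29.6 CPM in the thapsigargin libraries, against 6.97 to 15.6 CPM elsewhere, but were not called (1.37 ± 0.51, adjusted p = 0.822 at 2 h, and 1.29 ± 0.51, adjusted p = 0.272 at 6 h).

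Both RNA-Seq thapsigargin libraries carry the number of replicate 1, whose tunicamycin libraries also differed from replicates 2 and 3. Mitochondrial mRNA took 0.443% and 0.479% of counts in replicate 1 of tunicamycin and 0.587% and 0.492% in the thapsigargin libraries, against 1.06% to 1.61% in the rest. In these 4 libraries TPI1 ranged from 554 to 745 CPM and LDHB from 423 to 568 CPM, against 365 to 549.5 CPM and 231 to 347 CPM in replicates 2 and 3 of the untreated and tunicamycin groups. The part of this in the comparisons of thapsigargin with untreated cells was not tested. In the paired fit without untreated replicate 1, 14 of 32 members were called at 2 h of thapsigargin (12.8%), 3 higher (SLC2A3, HK2 and PFKFB3) and 11 lower. At 6 h 18 of 32 were called (26.8%), 3 higher (SLC2A3, HK2 and SLC16A1) and 15 lower, led by SLC16A3 (-1.41 ± 0.17, adjusted p = 0.000169) and LDHA (-0.80 ± 0.12, adjusted p = 0.0007235). With no untreated library of number 1, the block sets thapsigargin against untreated cells by way of the tunicamycin libraries. Called higher at 2 h in this fit, HK2 RNA stood at 129.9 CPM under thapsigargin. That lay below the untreated libraries, at 134, 138 and 142.5 CPM. PFKFB3 RNA, also called higher at 2 h, stood at 186 CPM, between untreated replicates 2 and 3 at 168 and 202 CPM. The direction of the set, and of single members called lower, turned between the fits. In the fit of all libraries, 20 of 32 members at 2 h and 17 at 6 h had a log2 fold change above 0, with medians of 0.13 and 0.09 against -0.38 and -0.50 over all genes. In the paired fit without untreated replicate 1 these were 7 and 9 members, with medians of -0.37 and -0.43 against -0.06 and -0.01. Leaving the library out with no block gave 12 and 13 members above 0, with medians of -0.18 and -0.16 against -0.04 and -0.06, and the block alone gave 25 and 20. LDHB RNA, at 458 and 423 CPM in the thapsigargin libraries, lay above the untreated libraries, the highest of which held 347 CPM. At 6 h LDHB differed by 0.48 ± 0.48 (adjusted p = 0.555) in the fit of all libraries and by -0.53 ± 0.12 (adjusted p = 0.00858) in the paired fit. GAPDH RNA, at 2518 and 2586.5 CPM against at most 2282 CPM untreated, went from 0.44 ± 0.47 (adjusted p = 0.584) to -0.43 ± 0.12 (adjusted p = 0.0243). Footprints gave 0 of 32 members against untreated cells at 2 h (0.0824%) and 0 at 6 h (0.974%). At an unadjusted p under 0.05 there were 2 and 7 members, and DESeq2 called 0 in each. Without untreated replicate 1 of Ribo-Seq, 0 were called at 2 h (0.139%) and 0 at 6 h (1.6%), with 3 and 7 at an unadjusted p under 0.05. Beside SLC2A3, the smallest p-values were those of TPI1 (1.11 ± 0.40, adjusted p = 0.819) and ENO2 (1.11 ± 0.58, adjusted p = 0.863) at 2 h, and TPI1 (1.15 ± 0.40, adjusted p = 0.209) and ALDOA (1.07 ± 0.43, adjusted p = 0.279) at 6 h.

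Thapsigargin and tunicamycin were set side by side at 6 h. In RNA-Seq 0 of 32 members were called (0%), with 3 at an unadjusted p under 0.05, while DESeq2 called 1. SLC2A3 was higher under thapsigargin by 2.03 ± 0.28 (adjusted p = 0.0659), PFKL lower by -0.75 ± 0.30 (adjusted p = 0.804) and PDK3 higher by 0.79 ± 0.33 (adjusted p = 0.826). In the paired fit without untreated replicate 1, 6 of 32 were called (13.5%). SLC2A3 (2.21 ± 0.17, adjusted p = 3.71e-05), PFKFB3 (1.17 ± 0.15, adjusted p = 0.000487) and SLC16A1 (0.50 ± 0.12, adjusted p = 0.0160) were higher under thapsigargin. SLC16A3, PFKL and PGLS were lower. PFKFB3 stood at 186 CPM at 2 h and 116 CPM at 6 h of thapsigargin, and PFKFB4 at 25.5 and 9.60 CPM. HK2 stood at 129.9 and 192 CPM, and at 6 h this was above tunicamycin replicate 1 and below replicates 2 and 3. In footprints 0 of 32 members were called (0.0206%), with 2 at an unadjusted p under 0.05 and 0 by DESeq2. SLC2A3 (1.49 ± 0.51, adjusted p = 0.521), TPI1 (1.10 ± 0.40, adjusted p = 0.554) and TALDO1 (0.77 ± 0.37, adjusted p = 0.663) had the smallest p-values.

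**Figure D4:**
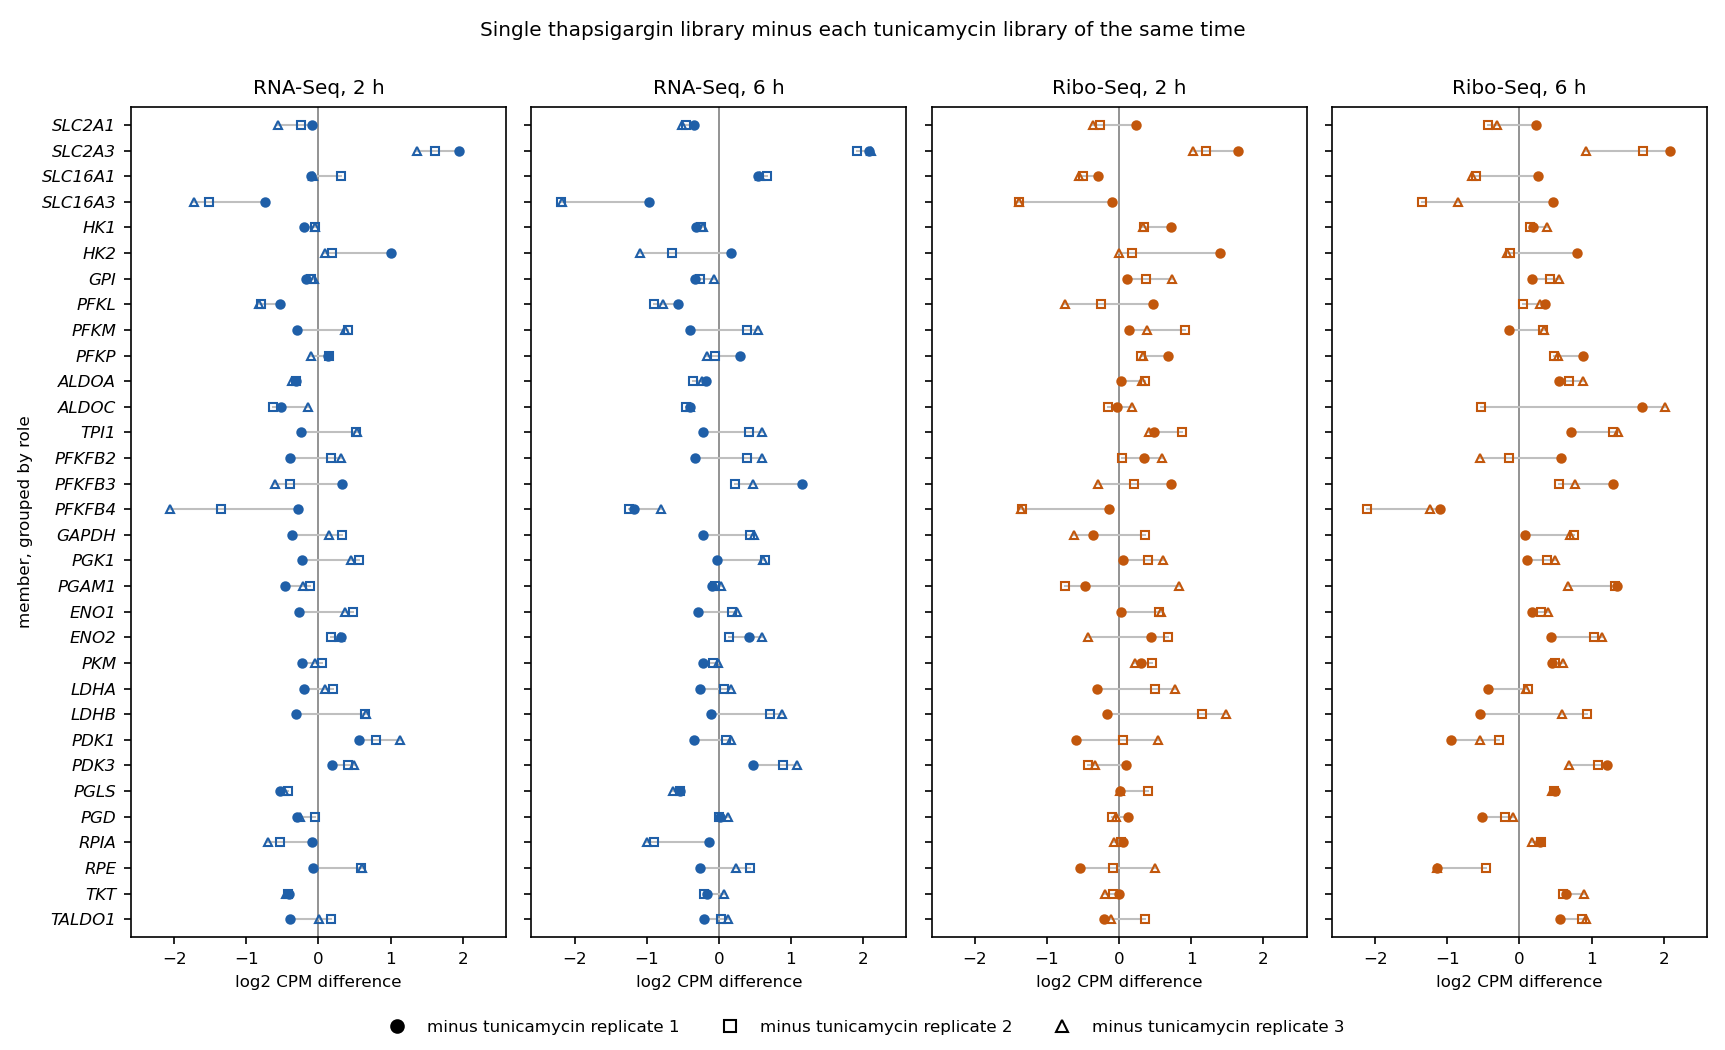
Log2 CPM of the single thapsigargin library minus each of the 3 tunicamycin libraries of the same time, for 32 members in RNA-Seq (blue, 2 h and 6 h) and Ribo-Seq (orange, 2 h and 6 h). SLC2A3 lies at 0.92 or above against every tunicamycin library, and PFKFB4 lies at -0.80 or below against every one at 6 h.

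A change in footprints beyond that in RNA was not detectable for any member. The interaction of assay and treatment, fitted in 1 model of both assays, called 0 of 32 members at 2 h against untreated (0%), at 6 h against untreated (0%) and at 6 h against 2 h (0%), with 0 at an unadjusted p under 0.05 and 0 by DESeq2 in each. With the block, without untreated replicate 1 of either assay and over the genes passing the filter in both, 0 were called in each (0%), with 0, 1 and 1 at an unadjusted p under 0.05. At 2 h the members with the smallest p were PFKFB2 (-0.76 ± 0.49, adjusted p = 0.890), ENO2 (0.73 ± 0.57, adjusted p = 0.975) and SLC2A3 (-0.54 ± 0.44, adjusted p = 0.995). At 6 h against untreated cells they were PDK3 (-1.14 ± 0.56, adjusted p = 0.677), PGD (0.38 ± 0.28, adjusted p = 0.904) and PGAM1 (-0.63 ± 0.47, adjusted p = 0.923). At 6 h against 2 h they were RPIA (-0.49 ± 0.40), PDK3 (-0.65 ± 0.57) and LDHB (0.64 ± 0.62), each with an adjusted p of 1.0.

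The ratio of footprints to RNA in untreated cells varied widely between members. The log2 ratio of mean footprint CPM to mean RNA CPM had a median of -0.12 over the 32 members and of -0.00 over 18500 genes that passed the filters of both assays, and 20 of 32 members lay below the latter. With replicates 2 and 3 alone the medians were -0.38 and -0.12. RPE (-1.87), PGAM1 (-1.71), TPI1 (-1.69) and GAPDH (-1.66) were lowest, between percentiles 7.58 and 9.03 of all genes. These 4 also have the pseudogene entries given above, whose part in the ratios was not tested. SLC16A3 (0.90), RPIA (0.78) and PGLS (0.64) were highest. HK2 had a ratio of -0.90 and PFKFB3 one of 0.27. With replicates 2 and 3 alone, RPE (-2.03), PGAM1 (-1.98), GAPDH (-1.77) and TPI1 (-1.72) were again lowest, while SLC16A3 (0.92), PGLS (0.73), PFKL (0.48) and ALDOC (0.46) were highest. RPIA then stood at 0.39, HK2 at -1.32 and PFKFB3 at 0.15. The ratios are free of gene length only as far as both assays count over the same length, which was not checked. No test was run on these ratios.

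**Figure D5:**
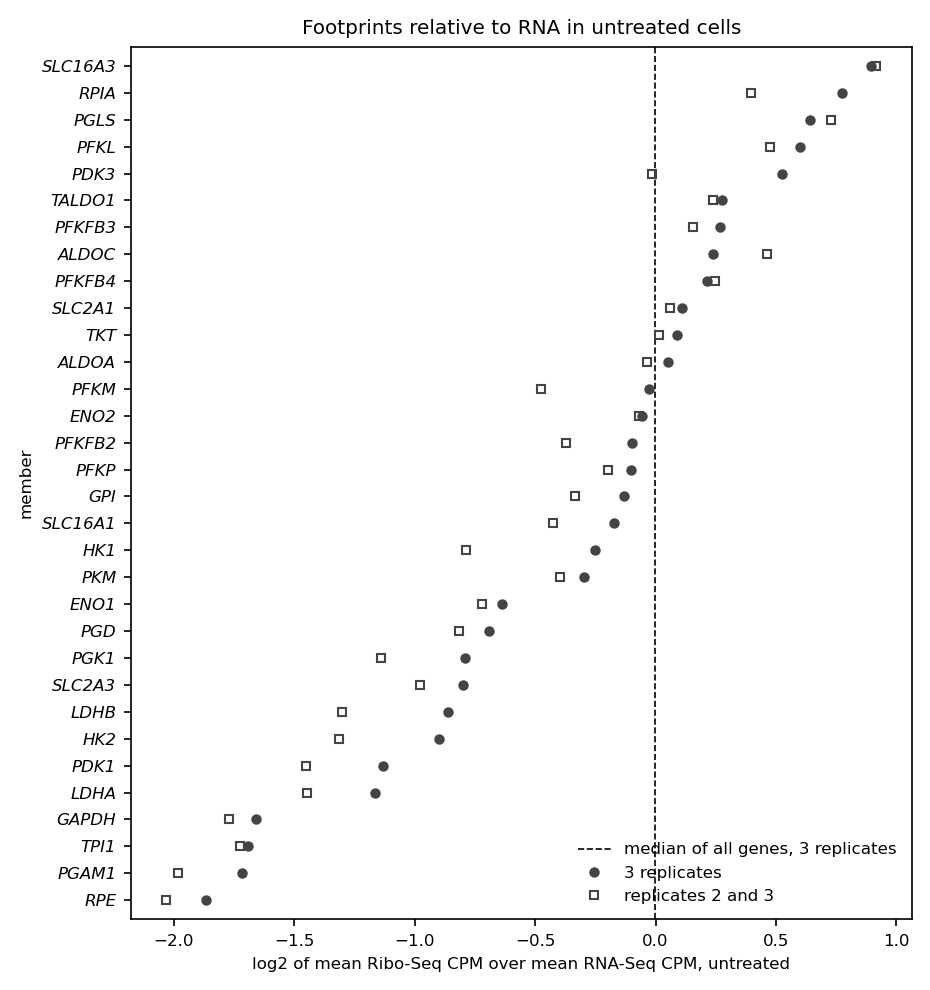
Log2 ratio of mean Ribo-Seq CPM to mean RNA-Seq CPM in untreated cells for each member, with all 3 replicates (filled) and with replicates 2 and 3 (open squares). The dashed line is the median of all 18500 genes, and RPE, PGAM1, TPI1 and GAPDH lie lowest with 3 replicates.

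The start regions of 5 members with changes described above follow, 250 bases upstream of a listed start, 5′ to 3′ on the gene's strand, from RefSeq (GRCh38.p14). Capitals mark ACGTG, the form of the HIF core searched here, on either strand, and it reads CACGT on the other strand. The form GCGTG was not searched and is not marked, though the HK2 and PFKFB4 windows hold it. Where the 2 cores overlap they form the E-box CACGTG. HK2 and PDK1 were higher and PFKFB3, LDHA and PFKFB4 lower at 6 h than at 2 h of tunicamycin in RNA-Seq. Of genes with 2 listed starts, the start with more matches is shown, and the genes were chosen after their values were seen.
HK2: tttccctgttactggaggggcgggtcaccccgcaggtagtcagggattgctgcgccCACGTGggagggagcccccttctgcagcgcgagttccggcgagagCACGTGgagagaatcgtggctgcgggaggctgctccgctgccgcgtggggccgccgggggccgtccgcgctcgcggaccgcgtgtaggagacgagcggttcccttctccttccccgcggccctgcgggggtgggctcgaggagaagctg
PDK1: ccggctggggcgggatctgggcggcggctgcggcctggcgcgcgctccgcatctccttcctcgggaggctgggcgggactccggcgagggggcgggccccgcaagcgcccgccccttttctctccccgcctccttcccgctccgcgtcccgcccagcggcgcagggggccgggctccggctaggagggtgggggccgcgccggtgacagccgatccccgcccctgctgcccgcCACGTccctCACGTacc
PFKFB3: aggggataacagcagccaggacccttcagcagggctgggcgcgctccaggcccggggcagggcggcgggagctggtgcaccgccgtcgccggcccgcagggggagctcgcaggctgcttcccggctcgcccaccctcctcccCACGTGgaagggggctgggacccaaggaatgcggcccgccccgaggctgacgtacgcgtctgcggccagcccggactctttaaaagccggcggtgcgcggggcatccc
LDHA: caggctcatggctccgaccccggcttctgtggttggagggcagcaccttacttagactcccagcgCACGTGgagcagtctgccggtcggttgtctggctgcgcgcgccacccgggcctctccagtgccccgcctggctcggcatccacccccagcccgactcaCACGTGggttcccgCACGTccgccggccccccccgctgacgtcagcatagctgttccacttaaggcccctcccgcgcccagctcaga
PFKFB4: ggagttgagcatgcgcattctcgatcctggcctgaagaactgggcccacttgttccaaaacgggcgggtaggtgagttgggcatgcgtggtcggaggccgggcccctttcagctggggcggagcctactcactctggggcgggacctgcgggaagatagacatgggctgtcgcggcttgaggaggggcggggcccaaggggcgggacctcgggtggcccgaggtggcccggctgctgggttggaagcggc

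These windows are chr2:74834920-74835169 (HK2, plus strand), chr2:172555840-172556089 (PDK1, plus), chr10:6202682-6202931 (PFKFB3, plus), chr11:18394313-18394562 (LDHA, plus) and chr3:48556804-48557053 (PFKFB4, minus). HK2 held 2 places with ACGTG, PDK1 2, PFKFB3 1, LDHA 3 and PFKFB4 0, so it was held by members that rose and by members that fell. The table listed 29 of 32 members. The core ACGTG was found upstream of at least 1 start of 16 of 29 members (55.2%), against 21.7% of 27305 genes. The members had 1.90 listed starts each on average and all genes 1.29, and a gene with more starts has more chances of a match. Counted per start, 19 of 55 member starts held the core (34.5%), against 18.5% of 35116 starts. The E-box CACGTG, which holds the core on both strands, was found for 6 of 29 (20.7%, against 7.73%, or 10.9% of starts against 6.35%), and the ATF4 core TGATGNAA for 1 of 29 (3.45%, against 3.89%), namely HK1. The unfolded protein response element TGACGTGG and the ER stress response element ERSE were found for 0 of 29, against 0.78% and 0.092% of genes. Both strands were searched, a match is a description of these letters, and no test was run.

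Other genes of carbon metabolism, in lists drawn up with earlier results of these data known, were tested in the same fits. Of all genes, the fit of all libraries called 1.5% in RNA-Seq and 0.84% in Ribo-Seq at 6 h of tunicamycin. The hexosamine branch, which makes UDP-GlcNAc from fructose 6-phosphate, had 2 of 7 genes called higher in RNA after 6 h of tunicamycin, GFPT1 (2.69 ± 0.28) and PGM3 (2.32 ± 0.27), and 0 lower. In footprints GFPT1 (2.54 ± 0.27), PGM3 (1.91 ± 0.30) and UAP1 (1.86 ± 0.36) rose. The serine branch, which leaves glycolysis at 3-phosphoglycerate, had 3 of 5 genes higher in RNA at 6 h, PSPH (1.98 ± 0.29), PSAT1 (1.99 ± 0.35) and SHMT2 (1.69 ± 0.31), and the same 3 in footprints. Of 19 genes of pyruvate fate, 1 rose in each assay, PCK2 (2.08 ± 0.25 in RNA and 2.06 ± 0.26 in footprints), which makes phosphoenolpyruvate in mitochondria. Of 13 genes of glycogen and UDP-glucose, UGDH rose in RNA (1.40 ± 0.25). Of 34 other genes of glycolysis and hexose handling, 33 were tested in RNA-Seq and 1, PGM2L1, fell (-1.11 ± 0.23). Of 10 other pentose phosphate genes 0 were called, with a median log2 fold change of 0.08 in RNA-Seq, against -0.27 over all genes. Of 23 regulators tied to hypoxia or glucose, SESN2 (3.83 ± 0.53) and VEGFA (2.61 ± 0.44) rose in RNA and SESN2 (3.54 ± 0.60) in footprints, while HIF1A rose in RNA at 6 h of thapsigargin (2.18 ± 0.46), where 1.79% of all genes were called. The adjusted p of each gene named in these lists was at most 0.0455. In the paired fit without untreated replicate 1, HIF1A differed by 1.23 ± 0.14 (adjusted p = 8.36e-05) at 6 h of thapsigargin. That fit, which called 23.9% of all genes at 6 h of tunicamycin, called 4 of 7 hexosamine genes higher and 0 lower in RNA-Seq. For the serine branch it called 4 of 5 higher and 1 lower, for pyruvate fate 3 of 19 higher and 2 lower, and for glycogen 1 of 13 higher and 3 lower. It called 1 of 28 other glycolysis genes tested higher and 7 lower, 0 of 9 other pentose phosphate genes higher and 2 lower, and 10 of 23 regulators higher and 3 lower.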

How the data were processed

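RNA-Seq and Ribo-Seq of LN308 cells were analysed from the deposited whole-number read counts per gene. Per the labels' protocols, cells received 0.1 mg/ml cycloheximide (5 min) and footprints of 27 to 33 nt were taken from 80S monosomes. The submitters' processing notes name STAR 2.5.4b, HTSeq, DESeq2 and GRCh38. Strand setting and annotation: not given in the sources used here. For that reason reads of overlapping or near-identical genes may be split.

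Counts were fitted with edgeR 4.0.16 in R 4.3.3 (quasi-likelihood, TMM, filterByExpr at a minimum count of 10, Benjamini-Hochberg) over all libraries of an assay, leaving 41130 genes in RNA-Seq and 19411 in Ribo-Seq. All 32 members passed. Footprint change beyond RNA change was an interaction in 1 fit of both assays, over 39928 genes. The edgeR fit was tested on simulated counts with a smaller spread than these data and no library set apart. How often it finds or misses changes in these data was therefore not measured. DESeq2 1.42.0, other scalings, no filter, fewer libraries and the replicate block were alternatives. Those that leave out untreated replicate 1 of Ribo-Seq or change the scaling without that of RNA-Seq, and those that need a gene to pass in both assays, were chosen after seeing the data. In the blocked Ribo-Seq fits the thapsigargin libraries, which carry no number, were left out.

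The deviations of libraries with the same number from the mean of their group were correlated at 0.426 to 0.6865 between 2 h and 6 h and 0.1201 to 0.2421 between untreated and 6 h in RNA-Seq, and 0.1228 to 0.4082 in Ribo-Seq, all above the threshold of 0.1. Between untreated and 2 h in RNA-Seq they were 0.0844 to 0.2431, so the numbers were not taken to pair these. In RNA-Seq, replicate 2 of 1 group and replicate 3 of the other also passed the threshold. They were correlated at 0.3306 and 0.3354 between 2 h and 6 h and at 0.111 and 0.119 between untreated and 6 h. In Ribo-Seq such pairs stayed below it.

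The members, the other metabolic lists and the glial, blood and epithelial marker lists were chosen with earlier results of these data known. Members given with fold change, SE and adjusted p are those called and, called or not, the 3 with the smallest p in each comparison of the fit of all libraries. Some members called in the other fits are given too, among them LDHB and GAPDH at 6 h of thapsigargin, whose direction turned. Of other lists, at most 3 called genes per direction are named. Gene lengths were not used.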

Additional observations from a re-analysis of the deposited data

How the results depend on the processing

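The 45 fold changes of members called or with the 3 smallest p in the fit of all libraries kept their direction in all 630 alternatives run. Of these alternatives, 72 passed the threshold where the fit of all libraries did not, 38 of them without untreated replicate 1. A further 3 lost it, all for SLC2A3 at 2 h of thapsigargin. Choice by small p favours a stable direction. LDHB and GAPDH at 6 h of thapsigargin, given above, were not among the 45, and their direction turned. Counts of members called moved as follows, in RNA-Seq unless said. The replicate block gave 1 member at 6 h of tunicamycin against untreated and 2 against 2 h, and 1 in each of these in Ribo-Seq, and changed no other count. With the block and replicates 2 and 3 alone, 6, 17 and 16 members were called at 2 h, at 6 h and at 6 h against 2 h of tunicamycin, and 2 and 3 in the last pair in Ribo-Seq. With the block and without untreated replicate 1, the counts were 2, 16 and 15 for these 3 comparisons, 14 and 18 for thapsigargin at 2 h and 6 h, and 6 between the drugs. The same fit gave 2, 21, 19, 16, 20 and 7 with library size alone, and 2, 16, 15, 13, 18 and 6 with DESeq2 size factors. The split at 6 h of tunicamycin was then 3 higher and 18 lower with library size alone, against 4 and 12. In Ribo-Seq, the block without its untreated replicate 1 gave 2 at 6 h against untreated and 4 against 2 h. DESeq2 called 3 at 6 h of tunicamycin, 3 against 2 h, 2 at 6 h of thapsigargin and 1 between the drugs, and 1 in each tunicamycin comparison at 6 h in Ribo-Seq. Without the filter, 1 was called between the drugs, and in Ribo-Seq 1 at 6 h of tunicamycin, 3 against 2 h and 1 at 6 h of thapsigargin. Library size alone gave 0 at 2 h of thapsigargin. Leaving out 1 library at a time gave 0 to 1 at 6 h against 2 h in each assay (1 without replicate 1 of 2 h in either, or of 6 h in RNA-Seq). It gave 0 to 1 at 2 h of thapsigargin (0 without untreated replicate 2 or 3) and 1 to 3 at 6 h (3 without untreated replicate 1). Beyond the libraries and genes left out, the cause was not tested. Ribo-Seq depth, at 4387173 to 29183769 counts, limits the low members, such as ALDOC with as few as 3 counts.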
